A study of Mus musculus with 6 samples.

Results

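Long single retained introns that came and went between libraries were examined in the nucleus accumbens of mice trained with morphine or with saline. A retained intron is one that stays in a transcript instead of being spliced out. Members were the single-intron retention events that span at least 2000 bases and were listed in 1 to 5 of the 6 libraries. An event counted as the same in different libraries when the gene, chromosome, strand and ends of the retaining exon were the same. The rule gave 3143 members in 1767 host genes, out of 128790 distinct events of all types and 13500 distinct single retention events. With 1 intron taken per member, they keep 2982 different introns, and 307 members keep further long introns that are not counted here. Members were chosen by the measured listing in the 6 libraries and by event length, so the numbers of libraries that list them are given as a description with no test.

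RNA was taken from nucleus accumbens, a ventral striatal region of reward learning, of C57BL/6N mice. The morphine group, 3 libraries with the replicate numbers 4, 5 and 6, came from mice trained in conditioned place preference (CPP) with morphine, an opioid agonist. The saline group, 3 libraries numbered 1, 2 and 3, came from mice given saline injections in the same model. The design text counts 6 mice per group, and the labels do not tie mice to libraries, so p-values measure the spread between these libraries. No genotype or age is given for either group beyond the strain. Each library has a catalogue of alternative first exons, last exons, skipped exons, retained introns and exon ends in its assembled transcripts. A catalogue says that an event was listed. It gives no abundance and no depth, so an event that is not listed may still have been transcribed.

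Introns are removed in the nucleus by the spliceosome, which reads a donor site at the 5' end of the intron, usually GT, and an acceptor site at its 3' end, usually AG. A transcript that keeps an intron is often held in the nucleus, and in the cytoplasm a stop codon read inside the intron can send it to nonsense-mediated decay. Neurons are known to keep introns in polyadenylated transcripts that can be spliced after a stimulus, and splicing factor genes use retained introns to limit their own output. In assembled reads a retained intron cannot be told apart from unspliced precursor RNA or from a transcript that ends in the intron.

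The catalogues matched the rule's label. The start and end of an event are the last base of the upstream exon and the base where the next exon begins, so the intron itself is 2 bases shorter than the event, and the shortest member intron had 1998 bases. Every retention event had a partner entry for the spliced form in the same library (100%). That pairing may only reflect how the catalogues are written, so it is no evidence that an intron was kept. Both ends of the retaining exon were exon ends of the GENCODE M21 annotation of GRCm38 for 95.8% of the members, and the positions below are given on that build. The retained intron itself was an annotated intron for 92.8% of the members. At the edge of the rule, 156 members had event lengths of 2000 to 2099 bases and 61.5% of them were listed in 1 library. The 174 events just outside, of 1900 to 1999 bases, had 64.9%.

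The edges of the retained introns are shown first. The counts cover annotated introns alone, so they cannot tell whether members in general are ordinary splice substrates. Letters came from GENCODE M21 transcripts whose exons run across an edge into the intron, and such transcripts gave the donor of 884 of the 2761 annotated member introns (32.0%) and the acceptor of 623 (22.6%). Introns with such letters have an annotated exon that overlaps them, so they do not stand for all members. The donor began with GT in 867, with GC in 14 and with AT in 3, and the acceptor ended in AG in 622 of 623. Of the 308 introns with letters on both sides, 300 ran from GT to AG. The 5 donor windows below are shown 5' to 3' with 8 exon bases followed by 12 intron bases, and capitals mark the first pair of intron bases. They belong to introns described below, in Srrm1 (chr4:135344670-135346734, minus strand), Son (chr16:91671466-91675400, plus strand), Tia1 (chr6:86420412-86424344, plus strand), Cnot7 (chr8:40500914-40507454, minus strand) and Celf2 (chr2:6553965-6560670, minus strand), all intron positions on GRCm38.
Srrm1 donor: aagtgaagGTatgacatgca
Son donor: ttaaaaagGTacagactgtc
Tia1 donor: agaatttcGTaagtagcaaa
Cnot7 donor: aatttgacGTaagtgggaag
Celf2 donor: actagcagGTaccataaaca
The acceptors of the same introns, 12 intron bases followed by 8 exon bases with the last pair of intron bases in capitals, all have AG at the edge.
Srrm1 acceptor: gtctttttgcAGaacccaga
Son acceptor: tcctttggatAGgatcagtt
Tia1 acceptor: cttctgtttcAGagatgccc
Cnot7 acceptor: ttctcctgccAGggaggaca
Celf2 acceptor: aaatgctctcAGgtatggcg

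The 3 introns with an AT donor lay in Scn2a, Srsf10 and Ift80, which were chosen after their letters were seen. Scn2a encodes a voltage-gated sodium channel, Srsf10 a splicing factor of the SR family and Ift80 a protein of transport along cilia. Capitals mark the intron bases as annotated.
Scn2a donor (chr2:65671721-65680997, plus strand): gtacattcATATCCTTTTGA
Srsf10 donor (chr4:135858410-135861773, plus strand): tatgttcaATATCCTTTCTT
Ift80 donor (chr3:68990962-68994498, minus strand): caaagcatATCCTTTAACCC
The letters ATATCCTT are the textbook start of one class of introns that the minor spliceosome removes, and GTATCCTT of the other. A search of the 884 donor windows on both strands found ATATCCTT in these 3 windows (0.339%), beginning at intron base 1 in 2 of them and across the annotated exon edge in Ift80. GTATCCTT was found in another 3 windows (0.339%), those of Hdhd5, Paxip1 and Tmem161b, at intron base 1 each time, and neither run was found on the other strand. The Scn2a intron of 9277 bases was listed in morphine replicate 4 and in saline replicate 2. The Srsf10 intron of 3364 bases was listed in 2 morphine libraries and in 1 saline library, and so was the Ift80 intron of 3537 bases.

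Next, the reading frame was carried from the upstream exon into the intron, because a stop codon there would end the protein. Of 835 annotated introns with donor letters and a single coding phase, 785 (94.0%) met an in-frame stop within the letters at hand, after a median of 11 codons with the stop included and a range of 1 to 260. The stop came within 10 codons in 375 introns (47.8%) and after more than 50 codons in 57 (7.26%). All 79 introns that had letters from end to end and a single phase held one. Introns this long leave much room for a stop in any frame, and no comparison set was read. These numbers are therefore a description. The letters come from annotated exons that run across the donor, so a stop may be the normal end of an annotated transcript. The stretches below run from the first whole or split codon at the edge to the stop, which is in capitals. They are shown for some of the named members with a stop within 19 codons. Longer stretches of named members, not shown, included 72 codons in Ccdc39, 61 in Unc13b, 32 in Foxp2, 25 in Kansl1l and 24 in Son. In Tia1, Cnot7, Gria2 (chr3:80702657-80706887, minus strand), Grik1 (chr16:87940657-87946544, minus strand), Gria4 (chr9:4432888-4456004, minus strand) and Homer1 (chr13:93356080-93386344, plus strand) the letters begin with 2 exon bases of a split codon, and in Mdm4 with 1.
Srrm1 read-through: gtaTGA
Tia1 read-through: tcgTAA
Cnot7 read-through: acgTAA
Atp6v0a1 read-through (chr11:101021183-101026680, plus strand): gtcaggTGA
Mdm4 read-through (chr1:133004722-133009136, minus strand): ggtacgttcTAG
Gria2 read-through: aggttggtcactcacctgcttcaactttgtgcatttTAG
Grik1 read-through: aggTAA
Gria4 read-through: aggtgggtggaaTAG
Homer1 read-through: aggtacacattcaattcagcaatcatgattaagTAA
Rgs9 read-through (chr11:109227605-109235899, minus strand): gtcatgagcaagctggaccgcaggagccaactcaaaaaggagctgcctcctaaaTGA
In Srrm1 the stop began at base 4 of the intron, in Tia1, Cnot7 and Grik1 at base 2, in Gria4 at base 11 and in Homer1 at base 32. Gria2 added 13 codons with the stop included, and Rgs9 added 19. The annotated exons read here ran 4383 bases into the Homer1 intron and 843 bases into the Rgs9 intron. Whether the stops in these 2 genes end a normal form of the protein was not tested.

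**Figure D1:**
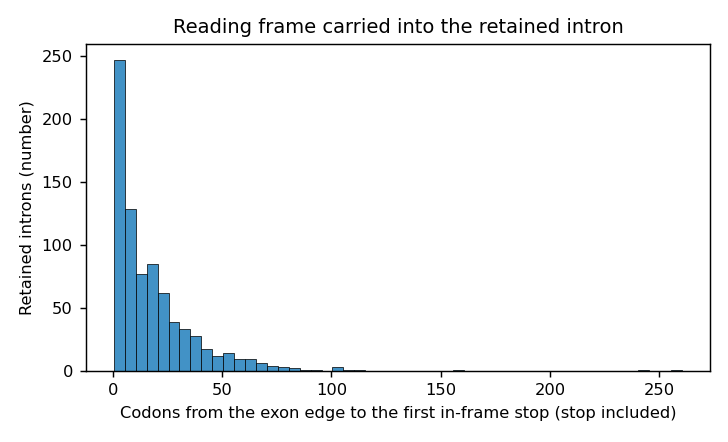
Distance from the exon edge to the in-frame stop in retained introns. The x axis gives the number of codons with the stop included in bins of 5 codons, and the y axis gives the number of annotated member introns. Most of the 785 introns lie at the left, with a median of 11 codons, and 8 lie beyond 100 codons.

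The other 50 introns met no stop within the letters at hand, and in 3 of them more than 400 intron bases were read. The longest open stretch was in Ank3, which encodes ankyrin-G, the scaffold of the axon initial segment, and which uses a very long neuronal exon in some transcripts. Its member intron of 5739 bases (chr10:69988633-69994371, plus strand) had 5130 bases read from the donor with no in-frame stop. The intron was listed in morphine replicates 4 and 6 and in saline replicate 1. The bases read lie in an annotated exon that crosses the donor. They may be coding sequence of an annotated transcript, which was not tested. Knop1 had 486 open bases and Mbd5, a methyl-CpG-binding domain protein, had 690 open bases, each in an intron listed in 1 morphine library and no saline library. These 3 genes were chosen after their values were seen.

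Long retained introns numbered 1139, 719 and 1023 in the morphine libraries 4, 5 and 6, against 980, 710 and 596 in the saline libraries 1, 2 and 3. The morphine mean was 960 ± 217 and the saline mean 762 ± 197 (SD, n = 3 each), a ratio of 1.26, and the groups overlapped, since saline replicate 1 lay above morphine replicate 5. The difference of 198 members per library was 109 without morphine replicate 4, 319 without morphine replicate 5, 307 without saline replicate 1 and 115 without saline replicate 3, so single libraries set its size. Members of 830, 571 and 767 host genes were listed in the morphine libraries and of 741, 530 and 487 in the saline libraries. Members made up 26.0%, 18.6% and 24.6% of all single retention events in the morphine libraries, against 22.5%, 23.1% and 19.3% in the saline libraries. The catalogues themselves were close in size, with 56416 to 57981 distinct events in morphine and 54641 to 58007 in saline, in 14121 to 14284 and 14243 to 14791 genes. Defining markers of medium spiny neurons (12 of 12), astrocytes (6 of 6), oligodendrocytes (6 of 6) and microglia (6 of 6) were listed in all 6 libraries. So were 4 of 5 endothelial markers, with the other one at 0, and 4 of 6 ependymal and choroid markers, with the other two listed in some libraries. Each library listed 14121 to 14791 of the 15939 catalogue genes, so these marker counts say little about cell types.

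The whole class of single retention events, which no listing rule had trimmed, could be tested. There were 4375, 3867 and 4151 in the morphine libraries and 4364, 3074 and 3094 in the saline libraries, a mean of 4131 ± 255 against 3511 ± 739 (SD, n = 3 each). The difference of 620 events did not pass an exact two-sided permutation test (p = 0.3, n = 3 per group, where 0.1 is the smallest p possible). Saline replicate 1 lay within the morphine range and the other saline libraries lay below it. Without saline replicate 1 the difference was 1047, and without saline replicates 2 and 3 in turn it was 402 and 412.

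**Figure D2:**
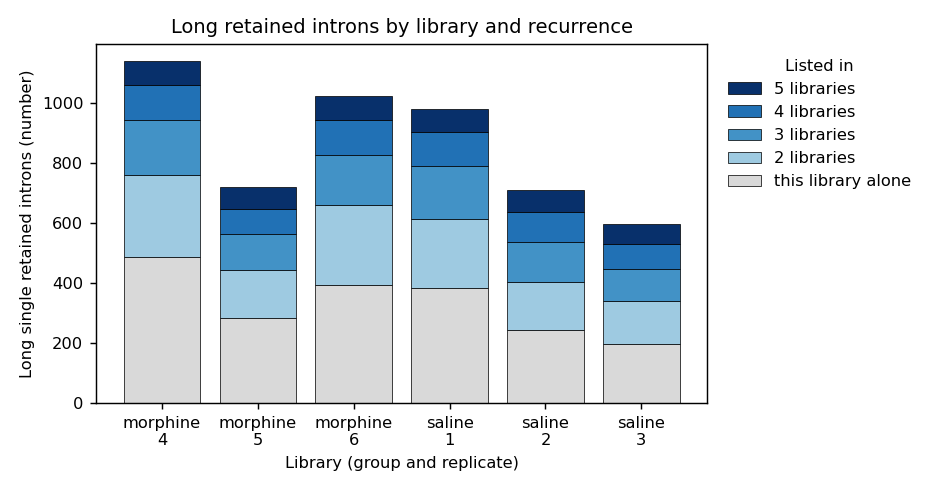
Long retained introns in each library, stacked by how many libraries list them. The x axis gives the 3 morphine and then the 3 saline libraries, and the y axis gives the number of long single retained introns. Between 596 and 1139 are listed per library, and the lowest block, introns listed in that library alone, holds 198 to 486.

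Most members were rare. Of the 3143, 1989 (63.3%) were listed in 1 library, 615 in 2, 297 in 3, 153 in 4 and 89 in 5. Shorter retained introns that were not constant had 66.5% in 1 library. Introns listed in that library alone numbered 486, 283 and 394 in the morphine libraries, against 385, 243 and 198 in the saline libraries, which is 42.7%, 39.4% and 38.5% of their members, against 39.3%, 34.2% and 33.2%. The shares overlapped between the groups at saline replicate 1. Any pair of libraries shared between 134 and 326 members. Pairs of morphine libraries shared 220 to 326, pairs of saline libraries 153 to 222, and pairs of 1 morphine and 1 saline library 134 to 308, so the ranges overlapped.

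What an unlisted member looked like in the other libraries could be read from the catalogues. Members and libraries form 18858 pairs, of which 13691 were unlisted. In 79.9% of these the host gene was listed and no listed exon spanned the intron, in 16.2% another listed exon spanned it, and in 3.78% the same intron was kept by a single-retention exon with other ends. The host gene was missing from the library in 0.161%. By that wider measure 193 members (6.14%) had an intron spanned by a listed exon in all 6 libraries. Unlisted therefore mostly meant that the gene was in the catalogue with no listed exon across this intron.

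Read by group, 1163 members were listed in a single morphine library and no saline library, and 826 in a single saline library and no morphine library. Another 374 were listed in 1 library of each group. Members listed in all 3 morphine and no saline libraries numbered 26, and those listed in all 3 saline and no morphine libraries numbered 12, which is 0.827% and 0.382% of the members. Over all events listed in 1 to 5 libraries the same pattern held for 0.405% in the morphine direction and 0.436% in the saline direction, in either direction for 0.841%, and over shorter retained introns for 0.557% and 0.219%, in either direction for 0.776%. The pattern in either direction made up 1.21% of the members, and 12.8% of the members listed in exactly 3 libraries, against 11.0% of all events listed in 3 libraries and 9.79% of shorter retained introns listed in 3. The listing chose these introns, so nothing is read from the counts. Without morphine replicate 5 the 26 became 112, and without saline replicate 2 the 12 became 48. Leaving out a library asks for fewer libraries, so these counts can only stay or rise.

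**Figure D3:**
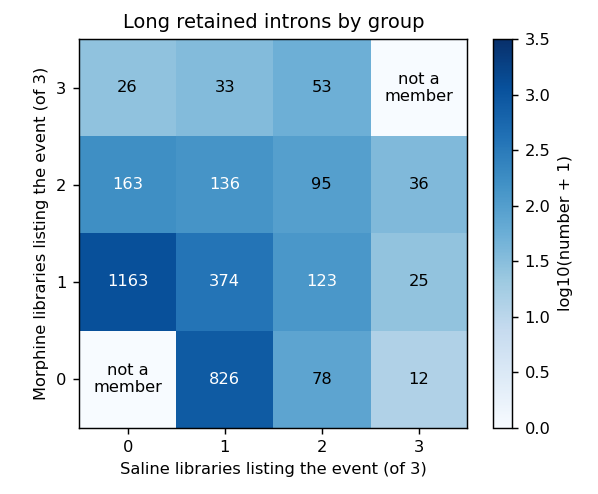
Long retained introns by the number of libraries of each group that list them. Rows give the number of morphine libraries, columns the number of saline libraries, each number is a count of introns, and the shade is its log10 after adding 1. The largest cells are 1163 and 826, for introns in 1 library of 1 group, and the corners for 1 group alone hold 26 and 12.

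Among the introns listed in all 3 morphine libraries and no saline library, the longest was in Lrrc1, with 9065 bases (ENSMUSG00000032352, chr9:77442293-77451357, minus strand). Next came Celf2, which encodes an RNA-binding splicing regulator of brain, with the 6706-base intron whose edges are printed above. Cacna1b (ENSMUSG00000004113), the pore-forming subunit of N-type calcium channels at nerve terminals, kept an intron of 6564 bases (chr2:24625335-24631898, minus strand). The intron in Atp6v0a1, a subunit of the proton pump that acidifies synaptic vesicles, had 5498 bases, and that in Usp35, a ubiquitin protease, had 5039 bases (chr7:97314928-97319966, minus strand). Ccdc88a, an actin-binding signalling protein, kept 4502 bases (chr11:29424831-29429332, plus strand), Ehbp1, an endocytic adaptor, 4441 bases (chr11:22146626-22151066, minus strand), and Txndc11, a thioredoxin-domain protein, 4423 bases (chr16:11079785-11084207, minus strand). In Lrrc1, Atp6v0a1, Usp35, Ccdc88a and Txndc11 no saline library listed any exon that spans the intron. In Celf2 and Cacna1b 1 saline library listed another exon across it, and in Ehbp1 2 saline libraries did.

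The introns listed in all 3 saline libraries and no morphine library were led by Eml6, a microtubule-associated protein, with 12876 bases (ENSMUSG00000044072, chr11:29764127-29777002, minus strand). Raph1, which links Ras signals to actin, kept 6821 bases (chr1:60503596-60510416, minus strand) and Ubn2, a histone chaperone subunit, 6756 bases (chr6:38491932-38498687, plus strand). Krit1, a protein of endothelial junctions, kept 5332 bases (chr5:3813195-3818526, plus strand), Fam149b 5122 bases (chr14:20358141-20363262, plus strand) and Nmt2, which attaches myristate to proteins, 4519 bases (chr2:3304948-3309466, plus strand). Mdm4, a p53 inhibitor, kept the 4415-base intron printed above. Gria2 (ENSMUSG00000033981), the AMPA receptor subunit that sets calcium permeability, kept 4231 bases. Of these 8, Eml6 and Raph1 had no listed exon across the intron in any morphine library, and Ubn2, Krit1 and Mdm4 had one in all 3. Mdm4 kept the same intron with other exon ends in 2 morphine libraries and Krit1 in 1. In Mdm4 and Krit1 the difference between the groups is therefore one of exon ends in those libraries.

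**Figure D4:**
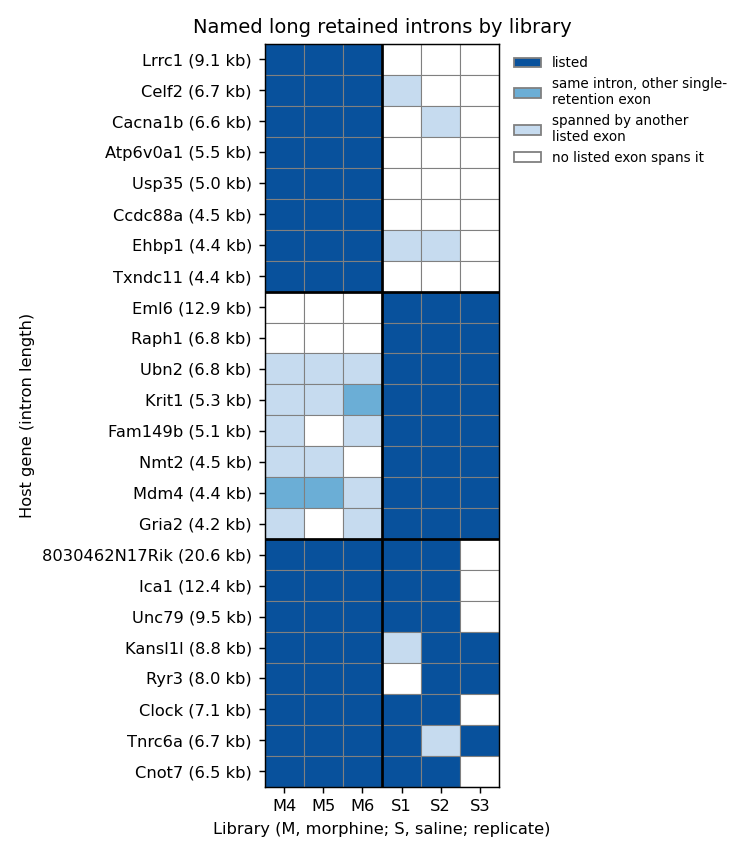
Listing of 24 named introns in each library. Rows are host genes with the intron length in kilobases, columns are the morphine libraries 4 to 6 and then the saline libraries 1 to 3, and the fill gives 4 states from listed to not spanned by any listed exon. The upper 8 rows are listed in morphine alone, the middle 8 in saline alone and the lower 8 in 5 libraries.

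Taken over all 38 introns, host genes were present throughout: each gene was listed in all 3 libraries of the other group, 26 of 26 for morphine and 12 of 12 for saline. No listed exon of the other group spanned 18 of the 26 morphine introns and 3 of the 12 saline introns. The same intron with other exon ends was kept in a library of the other group for 1 of 26 and for 3 of 12. The median intron had 2931 bases among the 26 and 4467 bases among the 12.

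Whether the same genes kept other introns was read from their remaining single retention events. For 25 of the 26 morphine genes and 11 of the 12 saline genes those numbers overlapped between the groups. Over all 2495 genes with a mean of 0.5 or more single retention events per library, every morphine library lay above in 3.97% and every saline library in 1.20%, so 1 gene in each direction is no result about these hosts. Morc2a, a chromatin silencing factor chosen here after its values were seen, lay above in the morphine direction. It had 6, 9 and 2 other single retention events in the morphine libraries, against 0, 0 and 1 in the saline libraries. Jmjd1c, a histone demethylase family member also chosen after its values were seen, lay above in the saline direction. Its other events numbered 1, 1 and 1 in the morphine libraries, against 2, 4 and 3 in the saline libraries. Events other than retention were more numerous in every morphine library for 4 of the 26 genes, Ppp6r3, Nfat5, Rexo4 and Morc2a, and in every saline library for 2 of the 12, Mdm4 and Jmjd1c. Over the 15040 genes with a mean of 0.5 or more such events, these patterns held for 1.17% in the morphine direction and 1.32% in the saline direction. The hosts were chosen by listing in the same libraries, so nothing is read from these counts. Morc2a had 11, 6 and 5 such events in morphine and 4, 3 and 4 in saline, and Jmjd1c had 9, 8 and 8 in morphine and 10, 19 and 19 in saline. The part of these numbers in the retention listing was not tested.

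Eml6 stood on both sides. Besides the saline intron, it kept an intron of 2546 bases in all 3 morphine libraries and no saline library (chr11:29819093-29821638, minus strand), and 1 saline library listed another exon across that one. Cacna1b likewise carried an intron of 3514 bases (chr2:24702621-24706134, minus strand) listed in morphine replicates 4 and 5 and in saline replicates 1, 2 and 3, besides the intron in morphine alone. Different introns of 1 gene thus had different listings.

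The 89 members listed in 5 libraries miss a single catalogue. The longest of them by the naming rule were in 8030462N17Rik (20603 bases), in Ica1, a protein of secretory vesicles (12379 bases, chr6:8658315-8670693, minus strand), and in Unc79, a subunit of the sodium leak channel complex (9471 bases, chr12:103095138-103104608, plus strand). Kansl1l (8828 bases, chr1:66726809-66735636, minus strand), Ryr3, a calcium release channel (8027 bases, chr2:112678548-112686574, minus strand), and Clock, the circadian transcription factor (7069 bases, chr5:76266890-76273958, minus strand), followed. Tnrc6a, a partner of Argonaute in microRNA silencing, kept 6658 bases (chr7:123162878-123169535, plus strand) and Cnot7, an mRNA deadenylase, 6541 bases. All 8 were listed in the 3 morphine libraries. The library without the intron was saline replicate 3 for 8030462N17Rik, Ica1, Unc79, Clock and Cnot7, saline replicate 1 for Kansl1l and Ryr3, and saline replicate 2 for Tnrc6a. Over all members in 5 libraries, 53 lacked a saline library and 36 a morphine library. In Kansl1l and Tnrc6a the missing library listed another exon across the intron.

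The 5 longest members were each listed in a single library, while 92 of the 135 members over 10000 bases were. Erc2, a scaffold of the presynaptic active zone, had a member of 66509 bases (chr14:28317315-28383823, plus strand) in saline replicate 3 alone, and Nrxn3, a presynaptic adhesion molecule, one of 38634 bases (chr12:90283651-90322284, plus strand) in saline replicate 1 alone. Neither intron is an annotated one. N4bp2l2 followed with 34728 bases (chr5:150608441-150643168, minus strand) in saline replicate 1 and Wac with 29751 bases in saline replicate 2. Homer1, a postsynaptic scaffold with a short form induced by activity that ends within the gene, kept an intron of 30265 bases in morphine replicate 4. The catalogues list a last exon that begins inside that Homer1 intron. The median member intron had 3374 bases, the middle 50% lay between 2539 and 5007 bases, and 135 (4.30%) were longer than 10000 bases. Median length in each library was 3483, 3093 and 3531 bases in morphine, against 3382, 3409 and 3239 bases in saline, so the groups overlapped.

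Host genes often carried several members. One member was found in 1099 genes (62.2%), 366 had 2, 134 had 3, 73 had 4 and 95 had 5 or more. Host genes had a median of 9 annotated introns of this length, against 4 in the other catalogue genes. Eml5, a microtubule-associated protein, had most, with 14 members that keep 11 different introns (1 taken per member), in a gene with 19 annotated introns of this length. They numbered 6, 3 and 5 in the morphine libraries, against 4, 6 and 1 in the saline libraries. R3hdm1, an R3H-domain protein, had 12 members, 1, 2 and 8 in the morphine libraries against 4, 4 and 3 in the saline libraries. Cacna1b had 11 members, 3, 5 and 3 in morphine against 3, 3 and 3 in saline. Rev3l, the catalytic subunit of a translesion DNA polymerase, also had 11, with 1, 5 and 1 in morphine against 3, 5 and 3 in saline. Kmt2e, a chromatin regulator of the MLL family, had 11, with 4, 4 and 3 in morphine against 5, 7 and 0 in saline. In all 5 genes the groups overlapped. Within Eml5 7 of the 14 members were listed in 1 library.

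The annotation was set beside the members and beside the 10050 shorter single retained introns that were not constant, over 9 properties that the rule did not use. For each property the share among members minus the share among shorter introns was taken in each of the 6 libraries and tested with an exact two-sided sign-flip permutation test, whose smallest p for 6 libraries is 0.031. Libraries share events, so the p-values measure the spread between libraries. An annotated exon that spans the intron existed for 3.96% ± 0.640 of the members and for 24.5% ± 1.35 of the shorter introns in the average library (SD, n = 6; difference -20.5 points, lower in 6 of 6 libraries, exact p = 0.031, Benjamini-Hochberg adjusted p = 0.0402). The whole retaining exon was an annotated exon for 1.45% ± 0.329 of the members and 12.1% ± 0.903 of the shorter introns (difference -10.7 points, lower in 6 of 6, exact adjusted p = 0.0402). Long retained introns were thus less often in the annotation as retained. Both ends of the retaining exon were annotated for 96.5% of the members and 96.8% of the shorter introns, a difference of -0.224 points that did not pass (SD of the difference 0.637, exact adjusted p = 0.422).

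Position in the gene differed by smaller amounts, each at the same exact adjusted p of 0.0402. Every property with this value sits at the smallest possible exact p of 0.031. The adjusted value is thus set by how many of the 9 properties reach that floor, and it does not rank the differences. The member intron was the first of an annotated transcript in 10.2% of cases and in 12.7% for shorter introns, a difference of -2.47 points, and the last in 12.4% and 15.8%, a difference of -3.43 points. It was itself annotated in 93.6% and 95.6%, a difference of -2.01 points, and all 6 libraries showed each of these directions. A length divisible by 3 was found in 32.5% of members and 33.5% of shorter introns, and a protein-coding host gene in 99.6% and 99.3%. Those differences were -1.0 and 0.249 points. Pooled over all events, divisibility by 3 had the opposite direction, with 33.2% of the members and 33.0% of the shorter introns. Divisibility by 3 did not pass with a minimum length of 1500 bases (exact adjusted p = 0.527), nor did coding hosts with 3000 bases (exact adjusted p = 0.281). The share of introns between coding exons was 96.9% against 96.6% and did not pass (exact adjusted p = 0.5).

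Members that recurred were more often in the annotation as retained, with 2.46% of those in 1 library, 3.41% in 2, 4.04% in 3, 5.23% in 4 and 8.99% in 5. These are shares of the members that the listing chose and carry no test. Introns listed in 5 libraries whose retaining exon is itself annotated included that of Srrm1.

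A longer intron has more room for other features, and the counts are given without a test for that reason. A skipped exon listed in any of the catalogues lay inside 439 member introns (14.0%), against 2.27% of the shorter ones. A splice site of a listed first exon lay inside 5.31% of the members and of a listed last exon inside 3.63%, and an annotated exon of another gene lay inside 6.55%. A small RNA gene lay inside 47 (1.5%). The catalogues rarely called the retaining exon a first or a last exon as well, in 1 member each.

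The known genes of several pathways were read out next. Annotated introns of this length numbered 94263 in the catalogue genes, and 2761 of them (2.93%) were members, with 1 intron taken per member. Gene lists had been chosen with earlier results of these data known, so their shares are descriptions and no list is called different from the rest. SR proteins and the Clk kinases that phosphorylate them are core splicing regulators, and 14 of their 162 long introns were members (8.64%), in 11 of 32 genes. Their members numbered 7, 5 and 6 in the morphine libraries, against 4, 4 and 4 in the saline libraries. Members were chosen by listing, so nothing is read from this separation. Members of all genes also averaged 960 in morphine and 762 in saline. Of 18 SR and Clk genes tested on all single retention events, 0 lay above in either direction. Most of the 16 members, 9, were listed in 1 library. Son, a nuclear speckle protein needed for splicing of weak sites, kept its 3935-base intron in all 3 morphine libraries and in saline replicates 2 and 3. Srrm1, a splicing coactivator, kept the 2065-base intron in morphine replicates 4 and 5 and in all 3 saline libraries.

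The hnRNP and neuronal splicing regulators had 22 of 374 long introns as members (5.88%) in 13 of 47 genes, with 8, 7 and 10 members in the morphine libraries, against 9, 6 and 6 in the saline libraries. Tia1, an RNA-binding protein of stress granules and alternative splicing, listed its 3933-base intron in morphine replicates 5 and 6 and in all 3 saline libraries. With exons of other ends counted, the same Tia1 intron was kept in all 6. Rbfox2, a regulator of neuronal exons, kept 7935 bases (chr15:77105670-77113604, minus strand) in morphine replicates 4 and 6 and in saline replicate 3. Chromatin enzymes had 31 of 431 (7.19%) in 17 of 45 listed genes, with 13, 5 and 12 members in morphine against 10, 7 and 8 in saline. Kdm6a, a histone H3 demethylase, kept 3557 bases (chrX:18257966-18261522, plus strand) in the 3 morphine libraries and saline replicates 1 and 2. Tet3, which oxidises methylcytosine, kept 2897 bases (chr6:83376975-83379871, minus strand) in morphine replicates 4 and 5 and the 3 saline libraries.

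Ion channels and receptors are considered next. Voltage-gated calcium, potassium and sodium channels had 40 of 642 long introns as members (6.23%), in 16 of 57 genes, with 14, 11 and 17 members in the morphine libraries, against 24, 12 and 8 in the saline libraries. Saline replicate 1 had most and saline replicate 3 fewest, so the groups overlapped. Cacna1c, the pore of L-type calcium channels, kept 4487 bases (chr6:119052706-119057192, minus strand; not an annotated intron) in the 3 morphine libraries and saline replicates 1 and 2. Glutamate receptors and their auxiliary subunits had 13 of 334 (3.89%) in 9 of 34 listed genes, with 5, 2 and 7 members in morphine against 9, 7 and 5 in saline. Gria4, an AMPA receptor subunit, kept 23117 bases in morphine replicate 6 and in the 3 saline libraries. Grik1, a kainate receptor subunit, kept 5888 bases in morphine replicates 4 and 5 and in saline replicates 1 and 2.

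Postsynaptic scaffolds and kinases had 19 of 452 (4.20%) in 11 of 32 genes, with 8, 5 and 7 members in morphine against 4, 7 and 3 in saline. Dlgap2, a scaffold of the postsynaptic density, kept 8050 bases (chr8:14831649-14839698, plus strand) in morphine replicates 4 and 6 and saline replicates 1 and 3. Sorbs2, an adaptor of the actin cytoskeleton, kept 13865 bases (chr8:45805854-45819718, plus strand) in morphine replicates 5 and 6 and saline replicates 2 and 3, and an exon of another gene lies inside that intron. Presynaptic release and adhesion genes had 13 of 616 (2.11%) in 11 of 43 genes, with 4, 4 and 7 members in morphine against 10, 5 and 3 in saline. Unc13b, which primes synaptic vesicles, kept 3860 bases (chr4:43245597-43249456, plus strand) in morphine replicates 4 and 6 and the 3 saline libraries. Syt7, a calcium sensor of release, kept 3466 bases (chr19:10435686-10439151, plus strand) in the 3 morphine libraries and saline replicates 1 and 2.

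Several lists held few members or none. Opioid and dopamine genes, 19 of which were listed, had 0 of 110 long introns, and myelin genes had 0 of 70 and microglial markers 0 of 31. Genes of cAMP, G protein and DARPP-32 signalling had 2 of 448 (0.446%), in Rgs9 and Gnb1. Rgs9, a striatal brake on G protein signalling, kept 8295 bases in all 3 morphine libraries and in saline replicate 1, and Gnb1, a G protein beta subunit, 2411 bases (chr4:155540620-155543030, plus strand) in morphine replicate 4. Medium spiny neuron markers had 2 of 152 (1.32%), the same Rgs9 intron and one of 2457 bases in Foxp2, a striatal transcription factor (chr6:15411344-15413800, plus strand), in morphine replicate 4. GABA genes had 1 of 160 (0.625%), in Gabra2, a GABA-A receptor subunit, with 4634 bases (chr5:71008067-71012700, minus strand) in morphine replicate 4. Immediate early genes had 1 of 54 (1.85%), the Homer1 intron. Astrocyte markers had 1 of 97 (1.03%), in Slc4a4, a bicarbonate transporter, with 2375 bases in saline replicate 1, and endothelial markers 2 of 108 (1.85%), both in Slco1a4, an organic anion transporter. Ependymal and choroid markers had 2 of 144 (1.39%), in Ccdc39, a protein of motile cilia. Its 3876-base intron (chr3:33821515-33825390, minus strand) was listed in morphine replicate 4 and in saline replicates 2 and 3.

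**Figure D5:**
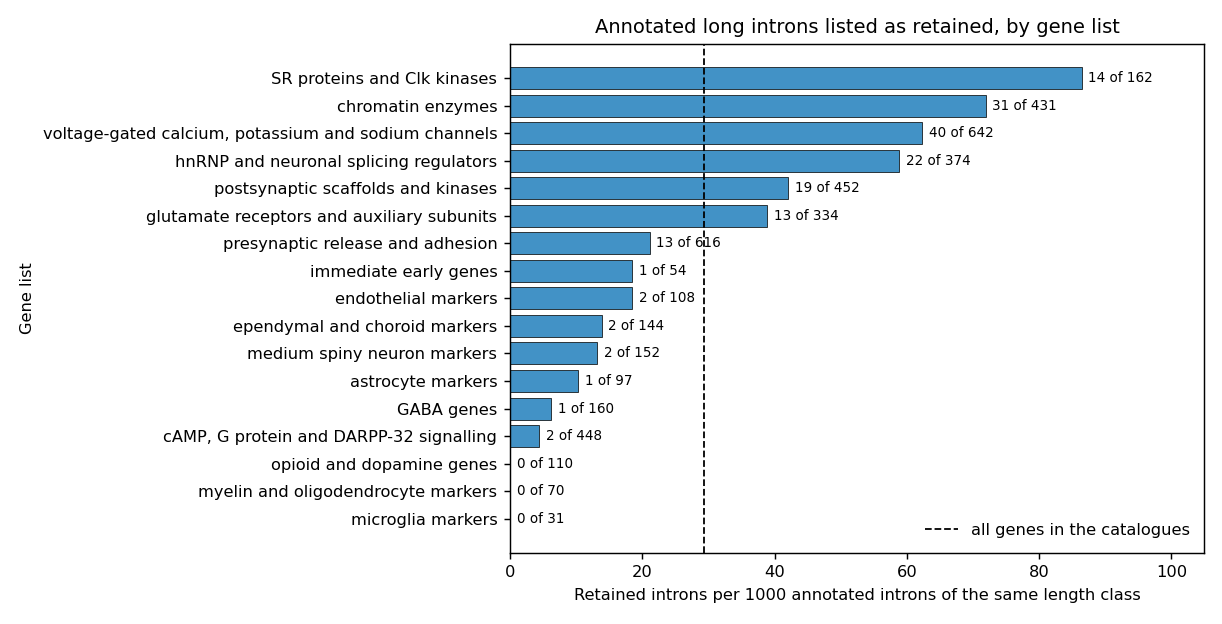
Members per 1000 annotated introns of the same length class, by gene list. Bars give the rate on the x axis, the numbers beside them give member introns of all such introns, and the dashed line is the rate over all catalogue genes, 2.93% or 2761 of 94263. SR proteins and Clk kinases lie highest at 86.4 and 3 lists lie at 0.

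Gene by gene, the number of all single retention events, whatever their length, could be compared over the whole table. A mean of 0.5 events per library or more was reached by 2495 genes, and 129 of them (5.17%) did not overlap between the groups, 99 with more in every morphine library (3.97%) and 30 with more in every saline library (1.20%). Genes that host a member made up 1188 of those tested, and 56 of them lay above in morphine (4.71%) and 13 above in saline (1.09%), against 43 (3.29%) and 17 (1.30%) of the 1307 genes that host none. In either direction that is 5.81% of the hosts and 4.59% of the others. The counts include the members' own listing, so nothing is read from the host share. No gene passed an exact two-sided permutation test: the smallest p was 0.1, the smallest adjusted p over all genes was 1, and 0 genes had an unadjusted p under 0.05, which 3 against 3 libraries cannot give. Among the host genes with more in morphine, Morc2a had 7, 10 and 3 single retention events in the morphine libraries, against 0, 0 and 1 in the saline libraries. Sun1, a nuclear envelope protein, had 3, 2 and 6 against 0, 0 and 0, and Polr3a, a subunit of RNA polymerase III, had 5, 3 and 5 against 1, 0 and 0. In the other direction Med13l, a Mediator subunit, had 2, 1 and 0 in the morphine libraries, against 3, 6 and 7 in the saline libraries. Speg, a muscle-type kinase, had 3, 2 and 2 in morphine and 6, 4 and 6 in saline. Sun1, Polr3a, Med13l and Speg were chosen after their values were seen. Of the list genes tested, 2 of 17 hnRNP and splicing regulators, 1 of 10 postsynaptic genes and 1 of 3 cAMP and G protein genes lay above in morphine. In saline 1 of 23 chromatin enzymes lay above. The other lists had none, among them 18 SR and Clk genes and 16 channel genes tested. Beside the shares of 3.97% and 1.20% over all genes, nothing is read from such small counts.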

How the data were processed

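RNA from nucleus accumbens was sequenced on an Illumina platform, per the labels and the design text, in 3 morphine and 3 saline libraries. The deposited files are catalogues of events in transcripts the authors assembled, with a type code (20 in all), gene ID, chromosome, start, end, exon pattern and strand, per the file headers. Which assembler, event caller, build and filters were used, and how deeply each library was read, is not given in the sources used here, so no counting interval was computed. The column headed fpkm in the authors' files holds whole numbers from -24 to 0 and was not used as an expression value, and no expression test was made. Positions are other values, in bases, as deposited.

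Members were single-retention entries (code IR_ON) of at least 2000 bases found in 1 to 5 of 6 files. The members, gene lists and naming rule were chosen with earlier results of these data known. Where an exon kept several introns (307 members), the one listed most often, then the longest, was used. Symbols and positions came from GENCODE M21, which held 15833 of 15939 gene IDs, and 15 members had no match. Letters came from its transcript sequences, since no genome sequence was used. GC content and splice-site shares were not compared with shorter introns: fewer than 80% of introns had letters. Counts per library were compared with exact two-sided permutation tests, annotation shares with exact sign flips over libraries, Benjamini-Hochberg adjusted over 9 properties, using Python 3.11.15, pandas 2.3.3, numpy 2.4.6 and matplotlib 3.10.9, after checks on simulated data. Named were the 8 longest introns listed in all libraries of 1 group alone per direction, the 8 longest in 5 libraries, the 5 longest, the 5 genes with most members and up to 2 genes per list. Alternatives were minimum lengths of 1500 and 3000, entries of the retention code XIR_ON added, introns matched without exon ends, annotated introns alone and equal-total scaling. Further ones were other event minimums per gene, leaving out each library and, added after seeing the data, exons whose listed introns are all long.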

Additional observations from a re-analysis of the deposited data

How the results depend on the processing

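No paired analysis was possible because the groups share no replicate number (4 to 6 in morphine, 1 to 3 in saline). The difference in members per library kept its sign under every alternative run, and so did that of all single retention events. Introns listed in morphine alone numbered 12 with a minimum of 3000 bases, against 26. Leaving out 1 library, which asks for fewer libraries by construction, gave 33 to 112 for morphine alone and 17 to 48 for saline alone. Genes with more single retention events in every morphine library numbered 50 with a minimum mean of 1 event, and 142 to 206 with a library left out. Those with more in every saline library numbered 12 and 50 to 87. With a library left out no property could pass, since 5 libraries allow no p under 0.0625. The difference in percentage points then ranged from -2.20 to -1.81 for annotated introns, from -10.8 to -10.5 for annotated retaining exons and from -20.9 to -20.3 for annotated retention. It ranged from -2.71 to -2.18 for first introns, from -3.67 to -3.12 for last introns, from -1.14 to -0.783 for a length divisible by 3, and from 0.213 to 0.295 for protein-coding hosts. Divisibility by 3 had -0.388 at a minimum of 1500 bases and no longer passed, and protein-coding hosts had 0.112 at 3000 bases and no longer passed. The share between coding exons turned to -0.536 at 3000 bases, without passing in either setting. The causes were not tested. Catalogues without depth limit every statement on an unlisted intron.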
